A study of Mus musculus with 14 samples.

Results

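Aminoacyl-tRNA synthetases are the enzymes that join each amino acid to its transfer RNA (tRNA). They were examined in mouse embryonic fibroblasts (MEFs), primary connective tissue cells grown from embryos, after deletion of Tip60. Tip60, the product of Kat5, is a lysine acetyltransferase of a chromatin remodelling complex. Members were taken by gene symbol: the cytosolic synthetases, whose symbols carry no final digit, and the mitochondrial synthetases, whose symbols end in the digit 2. All names were found, giving 36 genes of 26270 gene identifiers with counts, of which 20 are cytosolic and 16 mitochondrial. All 36 passed the filter on low counts, and the lowest count of any member in any library was 14.

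The RNA of 14 cultures was sequenced as polyadenylated transcripts. Knockout (KO) cells were Tip60-/- and were collected on day 3 (3 libraries) and day 5 (4 libraries), and control cells were Tip60+/+ and were collected on day 3 (3 libraries) and day 5 (4 libraries). All cells came from E13.5 embryos and were kept at 3% O2. The label on treatment, 3 or 5 days of 250 nM 4-hydroxytamoxifen (4-OHT) to delete Tip60, reads the same for every library. Whether control cells also received 4-OHT is therefore not stated as such, and the labels do not name the recombinase that it activates. The KO libraries came from 4 embryos and the control libraries from 4 others. KO replicates 2, 3 and 4 come from the same embryo on both days, and control replicates 1 and 2 of day 3 share an embryo. P-values treat the libraries as independent, so part of the spread they measure may be technical. Of 7 KO libraries 5 were male, against 1 of 7 control libraries.

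A synthetase recognises its amino acid and the matching tRNAs, and the charged tRNA is handed to an elongation factor that carries it to the ribosome. The cytosolic enzymes serve translation of nuclear messages, and several of them sit together in the multi-synthetase complex, while the mitochondrial enzymes are made in the cytosol, imported, and serve the translation of messages of the mitochondrial genome. Gars and Kars are known to encode both the cytosolic and the mitochondrial form of their enzyme. Many genes for cytosolic synthetases are known targets of ATF4, the transcription factor of the integrated stress response, which also drives genes of amino acid synthesis and uptake.

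As a check of the labels, Kat5 averaged 19.9 ± 1.41 CPM (counts per 1000000 of the scaled library total) in KO cells and 31.9 ± 0.41 CPM in control cells on day 3 (SD, n = 3 each), and 18.4 ± 1.14 CPM in KO cells and 30.9 ± 0.923 CPM in control cells on day 5 (SD, n = 4 each). The groups did not overlap on either day. Counts over the whole gene include exons outside a deleted segment, so the remaining level is no measure of remaining protein. Library totals ran from 2187168 counts (KO day 3 replicate 3) to 39203154 counts (KO day 3 replicate 2). All 10 fibroblast markers had counts in every group, with summed levels of 30559 to 33226 CPM in KO cells and 17759 to 21927 CPM in control cells on day 3, and of 19157 to 23532 CPM in KO cells and 23370 to 27998 CPM in control cells on day 5. Markers of cartilage stood apart by genotype on day 3, where the sum of 10 ran from 2342 to 2748 CPM in KO cells and from 84.5 to 177 CPM in control cells. On day 5 the sums overlapped, at 1860 to 3855 CPM in KO cells and 189 to 2622 CPM in control cells. One of the 10 had no count in the control cells of either day. On day 3, 8 of the 9 cartilage markers tested rose in KO cells and on day 5, 6 did. Of the 10 fibroblast markers 5 rose and none fell on day 3, and 3 rose and 3 fell on day 5. Among all genes tested, 24.6% rose and 26.2% fell on day 3, and 26.3% rose and 26.2% fell on day 5. The part of these markers in the results on synthetases was not tested. Summed markers of 3 other types also stood apart on day 3: neural (315 to 425 CPM in KO cells and 160.1 to 254 CPM in control cells), macrophage (47.5 to 68.3 CPM in KO cells and 72.7 to 98.8 CPM in control cells) and endothelium (16 to 17.9 CPM in KO cells and 11.6 to 15.8 CPM in control cells). On day 5 those of endothelium (14.6 to 18.2 CPM in KO cells and 5.70 to 8.87 CPM in control cells) and skeletal muscle (184 to 282 CPM in KO cells and 348 to 422 CPM in control cells) did, and the part of these types was not tested. In bulk RNA, fewer cells of a type and less RNA per cell cannot be told apart.

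The sequence at the starts of the cytosolic genes, most of which fell in KO cells as shown further on, is given first. RefSeq (GRCm38.p6, the assembly called mm10) gave 300 bases, 250 before and 50 after the annotated start, for 13 of the 20 cytosolic and 14 of the 16 mitochondrial members. The letters TGATGNAA, the core of the element that C/EBP-ATF dimers are known to bind, were searched on both strands. They stood in 5 of the 13 cytosolic promoters (38.5%) and in none of the 14 mitochondrial promoters. Of all 32851 promoters listed, 3.97% held them, and among promoters of the 10994 tested genes that have one 2.81% did. All 5 promoters with a match belong to cytosolic members commonly cited as ATF4 targets, of which 8 had a promoter there. Each stretch below holds a match in capitals, read 5′ to 3′ on the gene's strand, and the lower strand reads TTNCATCA.
Yars, chr4:129189866-129189927, plus strand: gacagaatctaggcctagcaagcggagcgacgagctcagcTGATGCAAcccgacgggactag
Gars, chr6:55037931-55038018, plus strand: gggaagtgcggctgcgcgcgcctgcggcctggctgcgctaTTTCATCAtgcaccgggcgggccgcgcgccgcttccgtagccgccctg
Aars, chr8:111033690-111033866, plus strand: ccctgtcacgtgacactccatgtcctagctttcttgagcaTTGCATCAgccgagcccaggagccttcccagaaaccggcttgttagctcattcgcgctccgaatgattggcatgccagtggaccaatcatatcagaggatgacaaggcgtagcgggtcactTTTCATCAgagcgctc
Iars, chr13:49682097-49682154, plus strand: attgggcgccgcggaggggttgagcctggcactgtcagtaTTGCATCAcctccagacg
Tars, chr15:11399634-11399713, minus strand: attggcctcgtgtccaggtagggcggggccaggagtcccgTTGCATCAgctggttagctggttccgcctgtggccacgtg
The match begins at position 3 from the start in Yars, -30 in Gars, -112 and 9 in Aars, 7 in Iars and -15 in Tars. For some members, among them Aars, Yars and Eprs, the start used lies inside the annotated gene span. Positions and absences hold for that start only. For contrast, the start of Sars, which also fell on both days, and that of Dars, the 1 cytosolic gene that did not fall on either day, hold no match within those 300 bases.
Sars, chr3:108445235-108445309, minus strand: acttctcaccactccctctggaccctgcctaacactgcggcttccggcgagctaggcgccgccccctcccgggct
Dars, chr1:128417392-128417466, minus strand: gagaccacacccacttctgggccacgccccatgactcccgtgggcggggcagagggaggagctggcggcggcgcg
A match is a description of the letters and was not tested for binding. Its part in the changes of level was not tested either, and the cited targets were listed with earlier results of these data known.

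Summed over the 20 cytosolic genes, mRNA stood at 3338, 2716 and 2637 CPM in the KO libraries of day 3, against 6744, 6169 and 5988 CPM in the control libraries. On day 5 the sum was 2211, 2224, 2226 and 2178 CPM in KO libraries, against 4171, 4451, 4331 and 3551 CPM in control libraries. No KO library reached the lowest control library on either day, and the KO mean was 46% of the control mean on day 3 and 53.6% on day 5. The sexes are unequal between the genotypes, so the same ratio was taken within sex. Among females it was 53% on day 3 (1 KO against 3 control libraries) and 51.5% on day 5 (1 against 3). Among males it was 62.1% on day 5 (3 against 1), and day 3 holds no male control. The male control, replicate 4 of day 5, is also the only control library of its litter label, so its sex and litter cannot be told apart. Its counts differed more from the other day 5 controls (chi-square per degree of freedom 37.1 to 79.9) than theirs did from one another (3.3 to 4.55). The 16 mitochondrial genes together gave 1893, 1367 and 1349 CPM in KO libraries and 1567, 1509 and 1585 CPM in control libraries on day 3, where the groups overlapped. On day 5 they gave 1560, 1415, 1931 and 1974 CPM in KO libraries and 1300, 1496, 1588 and 1511 CPM in control libraries, again overlapping. Most of this sum is 1 gene, Lars2, and without it the other 15 gave 357 ± 12.9 CPM in KO cells and 378 ± 2.95 CPM in control cells on day 3 (SD, n = 3 each). On day 5 the sum without Lars2 was 364 ± 6.89 CPM in KO cells and 347 ± 8.9 CPM in control cells (SD, n = 4 each). With Lars2 the KO mean was 98.9% of the control mean on day 3 and 117% on day 5; within sex it was 122% among females on day 3, and 96.8% among females and 121% among males on day 5. Without Lars2 it was 94.8% among females on day 3, and 106% among females and 106% among males on day 5. The sums without Lars2 did not overlap on day 3, at 343.5 to 369 CPM in KO cells and 376 to 382 CPM in control cells, and overlapped slightly on day 5, at 355 to 371 CPM in KO cells and 339.6 to 356 CPM in control cells. Iars2, the largest of these 15 genes, averaged 106.5 CPM in KO cells and 130.9 CPM in control cells on day 3. That gap was wider than the gap of the sums, so the lower sum of day 3 does not describe the other genes.

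**Figure D1:**
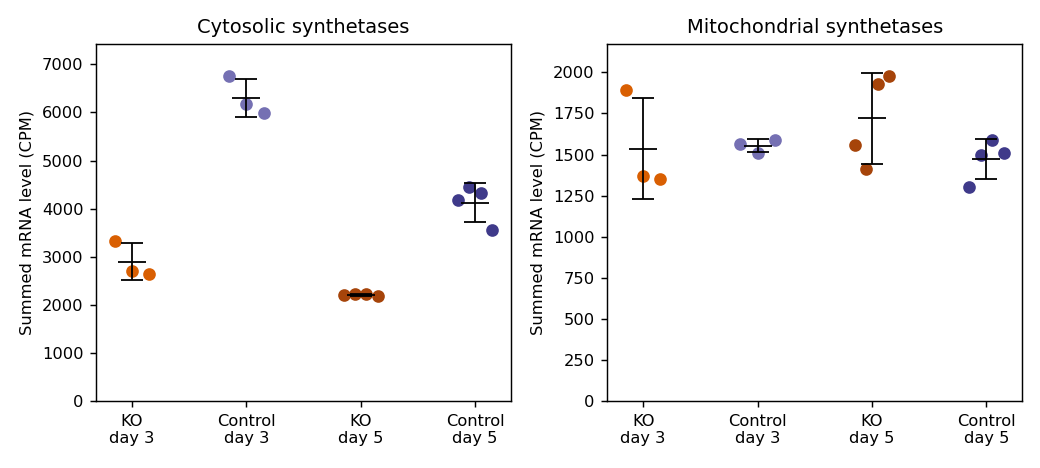
Summed mRNA level (CPM, y axis from 0) of the 20 cytosolic (left) and 16 mitochondrial synthetases (right) in each library (points), with group mean and SD (black), for KO and control cells on day 3 and day 5. The KO points of the cytosolic panel lie at 2178 to 3338 CPM and all control points at 3551 CPM or more, while the mitochondrial points of KO and control overlap on both days.

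On day 3, 18 of the 20 cytosolic genes fell in KO cells, 1 rose and 1 did not pass the test, at a p below 0.05 by edgeR's quasi-likelihood test, adjusted over 14327 genes by the Benjamini-Hochberg method. Of all genes tested, 26.2% fell and 24.6% rose. The median log2 fold change of the 20 was -1.13, beside 0 over all genes tested. KO libraries all lay below control libraries for 18 members, and above them for 1, where 29.6% and 28.2% of all genes did so. Fold changes below are log2 values, KO over control, with their standard error (SE).

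Sars, the seryl-tRNA synthetase (chromosome 3, 108424864 to 108445259 in GRCm38.p6), had the smallest adjusted p of the family. Its level was 240.1, 206 and 214 CPM in KO libraries of day 3 and 617, 661 and 619 CPM in control libraries. The KO libraries sat close together, far under the lowest control library, and Sars fell by 1.52 ± 0.084 SE (adjusted p = 3.09e-08). Wars, the tryptophanyl-tRNA synthetase and known in human cells as interferon-inducible (chromosome 12, 108860030 to 108894175), gave 90.8, 80.3 and 72.8 CPM in KO libraries, against 272, 265 and 254 CPM in control libraries. All KO values were again lower than all control values. Wars had the lowest fold change of the family on day 3, -1.69 ± 0.103 SE (adjusted p = 5.67e-08). Cars, which charges cysteine tRNA (chromosome 7, 143557230 to 143600090), gave 101, 78.4 and 73.8 CPM in KO libraries and 274, 267 and 247 CPM in control libraries. Its groups stood well apart, with a log2 change of -1.63 ± 0.118 SE (adjusted p = 1.89e-07). Lars, which charges leucine tRNA and in human cells is also known as a leucine sensor of the mTORC1 pathway (chromosome 18, 42202298 to 42262237), gave 138, 102 and 106 CPM in KO libraries and 355, 299 and 307 CPM in control libraries. The KO library with the highest value remained below the lowest control library, and the log2 change was -1.46 ± 0.114 SE (adjusted p = 3.59e-07).

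The other cytosolic genes that fell on day 3 spread over a wide range. Gars (-1.37), Iars (-1.29), Nars (-1.28), Rars (-1.26), Aars (-1.23), Yars (-1.22), Eprs (-1.05), Tars (-1.04) and Vars (-1.0), for glycine, isoleucine, asparagine, arginine, alanine, tyrosine, glutamate with proline, threonine and valine, lay at or below -1. Mars (-0.54), Farsb (-0.48), Kars (-0.38), Farsa (-0.37) and Qars (-0.30), for methionine, the β subunit for phenylalanine, lysine, its α subunit and glutamine, fell less. Farsa and Farsb form 1 enzyme, and their log2 changes lay near each other, with an SE of 0.111 for Farsa and 0.138 for Farsb. Their calls on day 3 were lost without KO replicate 4 of that day, with an adjusted p of 0.077 for Farsa and 0.0602 for Farsb, and Farsa also missed the threshold with sex as a covariate (0.051). The litter numbers of the labels are not shared between the genotypes on day 3, and the same number goes with other embryo labels in KO than in control cells, so litter as a covariate equates unrelated litters and is largely confounded with genotype. Under it 5 of these genes missed the threshold on day 3 with log2 changes of -0.24 for Farsa (adjusted p = 0.26), -0.22 for Farsb (0.374), -0.22 for Kars (0.214), -0.35 for Mars (0.0753) and -0.27 for Qars (0.0513).

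Dars, the aspartyl-tRNA synthetase (chromosome 1, 128363707 to 128417416), was the cytosolic gene that rose. It gave 178, 180.3 and 157 CPM in KO libraries of day 3, against 150.2, 128 and 136 CPM in control libraries. The lowest KO library stood just above the highest control library, and the log2 change was 0.31 ± 0.094 SE (adjusted p = 0.0126). Without control replicate 2 of day 3 the call was lost (adjusted p = 0.0593 for Dars). Hars, for histidine, gave 74.7, 53.5 and 68.7 CPM in KO libraries and 74.9, 73.1 and 67.8 CPM in control libraries. These groups overlapped, and the log2 change of -0.10 ± 0.102 SE did not pass (adjusted p = 0.419).

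**Figure D2:**
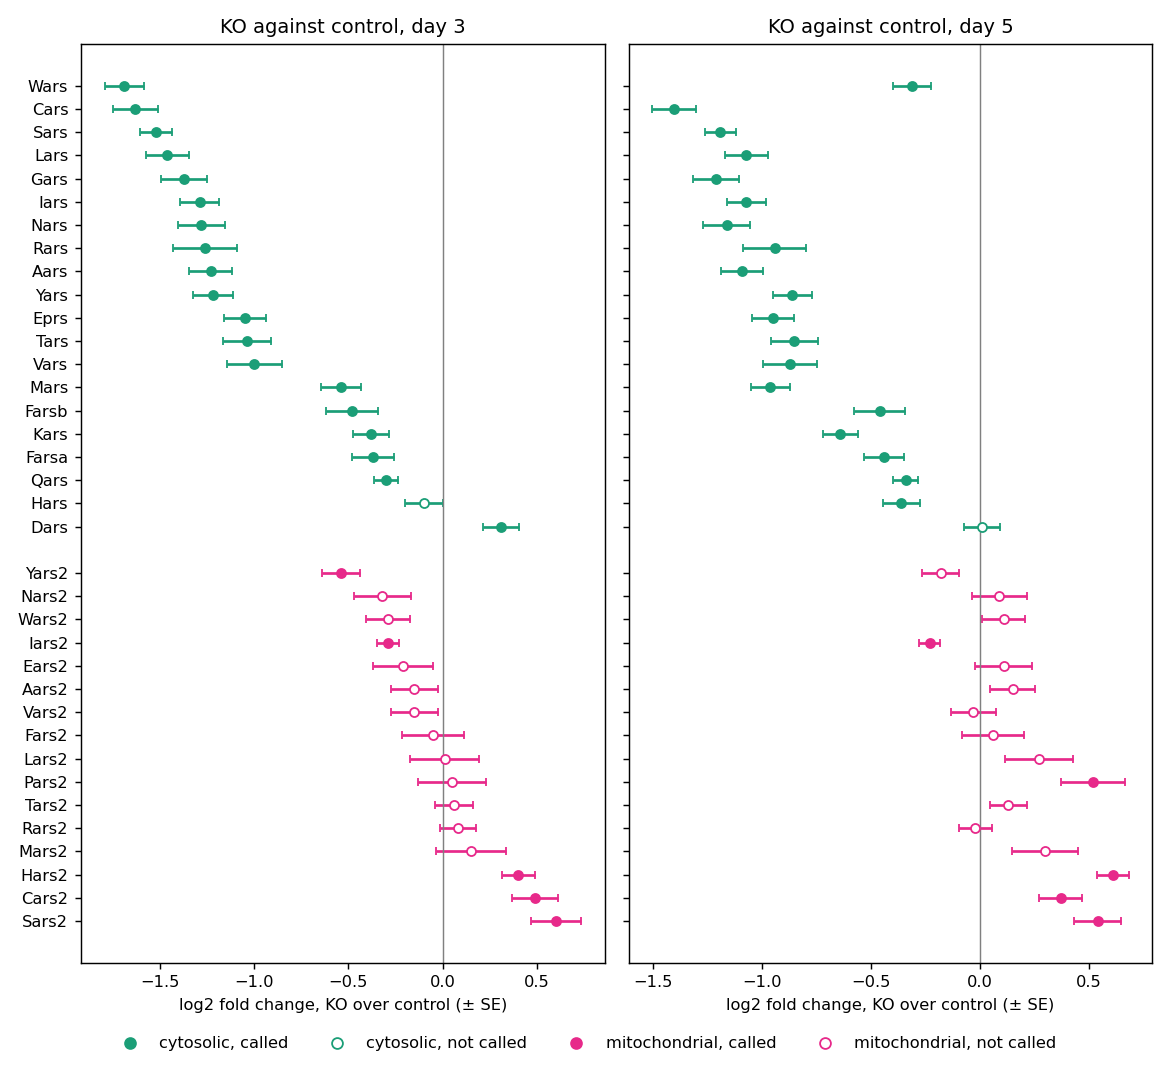
Log2 fold change, KO over control, with its SE (x axis) for each of the 36 synthetases (y axis) on day 3 (left) and day 5 (right). Filled points passed an adjusted p of 0.05. Nearly all cytosolic genes (green) lie left of 0, down to -1.69 on day 3 and -1.40 on day 5, and mitochondrial genes (pink) lie on both sides of 0, between -0.54 and 0.61.

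On day 5, 19 of the 20 cytosolic genes fell, none rose and Dars did not pass the test, where 26.2% of all genes tested fell and 26.3% rose. The median log2 change was -0.90, beside 0.02 over all genes tested. KO libraries lay wholly below control libraries for 18 of them, where 23.8% of all genes did. The 18 genes that fell on day 3 fell on day 5 as well, joined by Hars.

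Sars gave 110, 113, 128 and 123 CPM in KO libraries of day 5 and 264, 275, 286 and 259 CPM in control libraries. No KO value came near a control value, and Sars fell by 1.19 ± 0.072 SE (adjusted p = 3.74e-08). Cars gave 63.3, 60.7, 61.8 and 61.9 CPM in KO libraries, against 161, 181, 175 and 137 CPM in control libraries. The KO libraries were nearly level while control replicate 4, the male and the only control of its litter label, was the lowest of its group. Cars had the lowest fold change of day 5, -1.40 ± 0.101 SE (adjusted p = 1.76e-07). Iars gave 134, 132, 137 and 132 CPM in KO libraries and 289.5, 299.5, 291 and 244 CPM in control libraries. Here too control replicate 4 was low yet far over every KO library, and the log2 change was -1.07 ± 0.089 SE (adjusted p = 5.01e-07). Gars gave 163, 155, 163 and 157 CPM in KO libraries, against 369, 383, 392 and 328 CPM in control libraries. The groups stood apart with a log2 change of -1.21 ± 0.105 SE (adjusted p = 7.85e-07).

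Of the remaining genes, Nars (-1.16), Aars (-1.09), Lars (-1.07), Mars (-0.96), Eprs (-0.95), Rars (-0.94), Vars (-0.87), Yars (-0.86) and Tars (-0.85) fell most, and Kars (-0.64), Farsb (-0.46), Farsa (-0.44), Hars (-0.36), Qars (-0.34) and Wars (-0.31) less. For Farsb the groups overlapped, with 61.0, 60.9, 64.0 and 61.4 CPM in KO libraries and 87.0, 94.7, 94.7 and 63.7 CPM in control libraries. The Farsb call of day 5 was lost with litter as a covariate (-0.31, adjusted p = 0.0817). Hars, which had not passed on day 3, gave 74.7, 71.6, 75.7 and 75.7 CPM in KO libraries of day 5 and 99.6, 102, 95.3 and 84.2 CPM in control libraries. KO values all lay below control values (adjusted p = 0.00309 for Hars). Dars gave 149, 156, 142 and 144 CPM in KO libraries, against 146, 160, 155 and 126 CPM in control libraries. These ranges covered each other, and the log2 change was 0.01 ± 0.081 SE (adjusted p = 0.916).

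**Figure D3:**
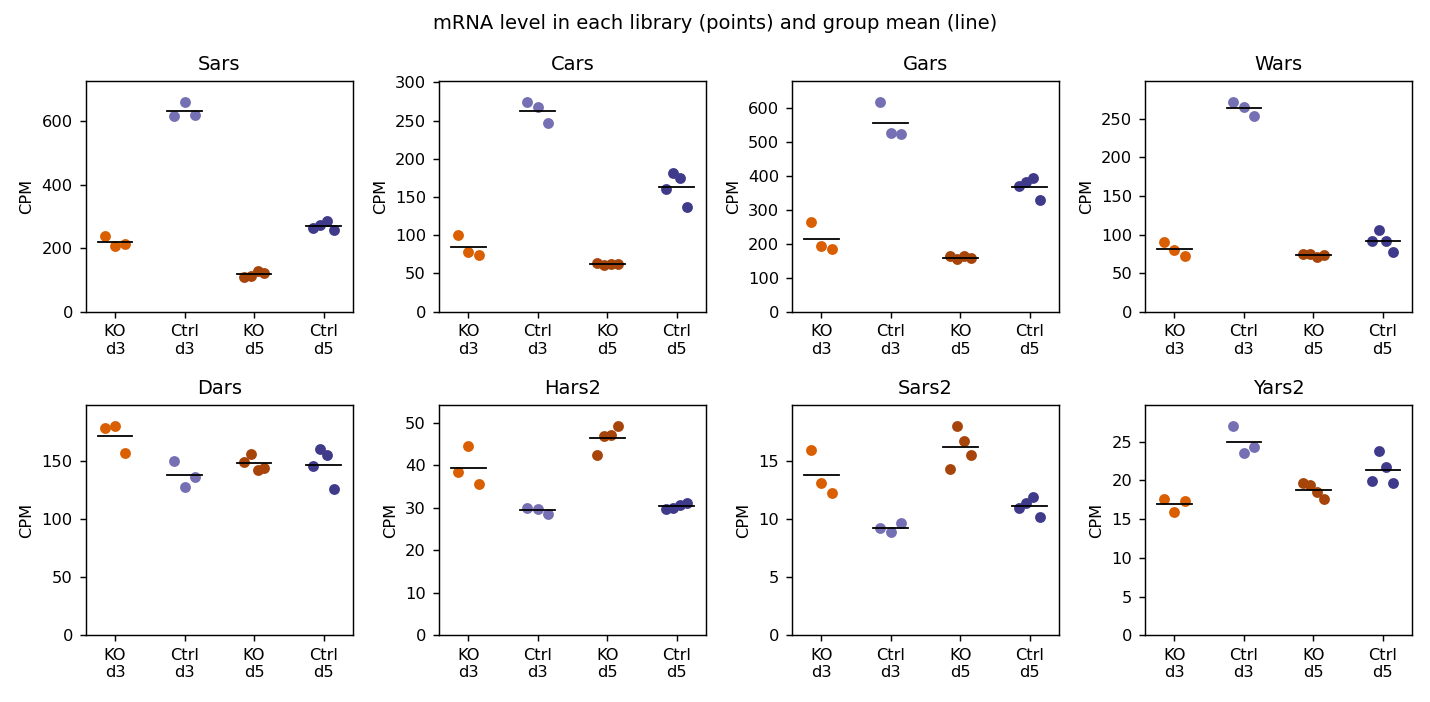
mRNA level (CPM, y axes from 0) in each library (points) with the group mean (line) for 5 cytosolic genes (Sars, Cars, Gars, Wars, Dars) and 3 mitochondrial genes (Hars2, Sars2, Yars2), KO left of control on day 3 (d3) and day 5 (d5). Sars, Cars and Gars show KO below control on both days, while for Wars the control mean is 263 CPM on day 3 and 91.3 CPM on day 5, and for Hars2 and Sars2 KO lies above control.

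Whether the effect of deletion differed between the days was tested directly, as the log2 change of day 5 minus that of day 3. It passed for 1 of the 20 cytosolic genes, Wars, and for none of the 16 mitochondrial genes, where 14.3% of all genes tested passed. At an unadjusted p below 0.05 edgeR gave 6 cytosolic and 2 mitochondrial genes. DESeq2 gave 3 cytosolic genes and 0 mitochondrial genes at an adjusted p below 0.05. The effect on Wars was weaker on day 5 by 1.38 ± 0.133 SE (adjusted p = 4.45e-05). Its day 5 levels were 75.2, 74.7, 71.0 and 73.6 CPM in KO libraries and 91.2, 105.3, 91.1 and 77.8 CPM in control libraries. The KO values overlapped those of day 3, while all control values of day 5 lay far below those of day 3. On day 5 the remaining difference was -0.31 ± 0.086 SE (adjusted p = 0.00722 for Wars), a call that was lost with litter as a covariate (-0.19, adjusted p = 0.123 for Wars). Sars stood next to the threshold, with a difference between days of 0.33 ± 0.108 SE (adjusted p = 0.0565), as did Mars with -0.41 ± 0.14 SE (adjusted p = 0.0625).

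Change with time was then read within each genotype. These comparisons share libraries with the KO comparisons above, so their values are set side by side only. In KO cells 8 of the 20 cytosolic genes fell on day 5 against day 3 and none rose, where 7.06% of all genes tested fell and 4.98% rose. In control cells 13 fell and 2 rose, where 19.9% of all genes fell and 18.3% rose. The median log2 change of the cytosolic genes was -0.25 in KO cells and -0.55 in control cells. All 8 that fell in KO cells were also among those that fell in control cells.

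Sars fell with time by 0.89 ± 0.077 SE in KO cells (adjusted p = 5.86e-06) and by 1.22 ± 0.076 SE in control cells (adjusted p = 4.39e-08). Wars changed by -0.15 ± 0.094 SE in KO cells (adjusted p = 0.357) and fell by 1.53 ± 0.092 SE in control cells (adjusted p = 3.45e-08). Cars fell by 0.46 in KO cells (adjusted p = 0.0131) and by 0.69 in control cells (adjusted p = 0.00015). The 2 that rose with time in control cells were Hars (0.41, adjusted p = 0.00341) and Mars (0.29, adjusted p = 0.0324). Their values in KO cells, 0.15 for Hars and -0.13 for Mars (adjusted p = 0.472 for Mars), did not pass. In 15 of the 20 cytosolic genes, against 1 of the 16 mitochondrial genes (Iars2), the mean was highest in control cells of day 3 and lowest in KO cells of day 5. Among mitochondrial genes, 1 rose and 2 fell with time in KO cells, and 1 rose and 4 fell in control cells. In KO cells these shares are 6.25% higher and 12.5% lower, beside 4.98% and 7.06% of all genes tested. In control cells they are 6.25% higher and 25% lower, beside 18.3% and 19.9%. Fars2, for phenylalanine, and Wars2, for tryptophan, fell in both genotypes, with log2 changes of -0.66 in KO cells and -0.76 in control cells for Fars2, and of -0.47 in KO cells and -0.87 in control cells for Wars2. With the embryo as a block, since some embryos gave libraries on both days, 3 mitochondrial genes in place of 5 passed in control cells.

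The mitochondrial synthetases gave a mixed picture. On day 3, 3 of the 16 rose, 2 fell and 11 did not pass, and on day 5, 4 rose, 1 fell and 11 did not pass. These shares are below those of all genes tested, of which 50.9% passed on day 3 and 52.5% on day 5. Their median log2 change was -0.02 on day 3 and 0.12 on day 5. Hars2, Sars2 and Cars2 rose on both days and Iars2 fell on both.

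Hars2, for mitochondrial histidine tRNA (chromosome 18, 36783202 to 36792562), gave 38.4, 44.6 and 35.5 CPM in KO libraries of day 3 and 30.0, 29.7 and 28.6 CPM in control libraries. On day 5 it gave 42.5, 47.0, 47.2 and 49.4 CPM in KO libraries, against 29.8, 29.9, 30.8 and 31.2 CPM in control libraries. Every KO library exceeded every control library on both days. The log2 change of Hars2 was 0.40 ± 0.087 SE on day 3 (adjusted p = 0.00159) and 0.61 ± 0.072 SE on day 5 (adjusted p = 1.02e-05), and the day 3 call was lost with litter as a covariate (0.27, adjusted p = 0.0992 for Hars2). Hars and Hars2 are neighbours whose annotated spans overlap by 4 bases at one end, and on day 5 Hars fell while Hars2 rose. Sars2, for mitochondrial serine tRNA (chromosome 7, 28741957 to 28753879), gave 15.96, 13.2 and 12.3 CPM in KO libraries of day 3 and 9.25, 8.88 and 9.71 CPM in control libraries. On day 5 it gave 14.3, 18.04, 16.8 and 15.5 CPM in KO libraries, against 10.9, 11.4, 11.9 and 10.2 CPM in control libraries. Its groups did not overlap on either day, with log2 changes of 0.60 ± 0.133 SE (adjusted p = 0.00185) on day 3 and 0.54 ± 0.108 SE (adjusted p = 0.000768) on day 5. Cars2, for mitochondrial cysteine tRNA (chromosome 8, 11514017 to 11550781), gave 14.9, 18.3 and 14.7 CPM in KO libraries of day 3 and 9.82, 11.9 and 11.3 CPM in control libraries. On day 5 it gave 18.9, 17.3, 18.5 and 20.3 CPM in KO libraries and 13.8, 15.3, 15.97 and 13.2 CPM in control libraries. KO was higher in all libraries, by 0.49 ± 0.123 SE on day 3 (adjusted p = 0.0043) and by 0.37 ± 0.099 SE on day 5 (adjusted p = 0.00602).

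Yars2, for mitochondrial tyrosine tRNA (chromosome 16, 16302965 to 16309640), went the other way on day 3, with 17.6, 15.97 and 17.3 CPM in KO libraries and 27.1, 23.5 and 24.4 CPM in control libraries. The groups stood apart, and Yars2 fell by 0.54 ± 0.101 SE (adjusted p = 0.00058). On day 5 it gave 19.7, 19.4, 18.5 and 17.7 CPM in KO libraries, against 19.9, 23.8, 21.7 and 19.7 CPM in control libraries. The highest KO library lay just under the lowest control library, and the change of -0.18 ± 0.083 SE did not pass (adjusted p = 0.0858 for Yars2). Iars2, for mitochondrial isoleucine tRNA (chromosome 1, 185286642 to 185329419), gave 109, 102 and 108 CPM in KO libraries of day 3 and 132, 129.7 and 131 CPM in control libraries. On day 5 it gave 102, 101, 98.3 and 98.4 CPM in KO libraries and 112, 122, 119 and 116 CPM in control libraries. Its KO libraries were lower throughout, with small log2 changes of -0.29 ± 0.058 SE (adjusted p = 0.000797) on day 3 and -0.23 ± 0.049 SE (adjusted p = 0.00131) on day 5. Pars2, for mitochondrial proline tRNA, was the weakest member and gave 6.40, 6.54, 6.86 and 7.20 CPM in KO libraries of day 5, against 4.51, 4.00, 5.87 and 4.8 CPM in control libraries. The groups did not overlap and Pars2 rose by 0.52 ± 0.147 SE (adjusted p = 0.00866), a call lost with litter as a covariate (0.46, adjusted p = 0.0565 for Pars2).

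The 10 mitochondrial genes that passed on neither day were Aars2, Ears2, Fars2, Lars2, Mars2, Nars2, Rars2, Tars2, Vars2 and Wars2. Their log2 changes lay between -0.32 (Nars2, day 3) and 0.30 (Mars2, day 5). Wars2 stood next to the threshold on day 3 (-0.29, adjusted p = 0.0501) and passed it with library totals only (0.0382), with sex as a covariate (0.0435) and without any one of 6 libraries. Mars2 passed on day 3 without control day 3 replicate 1 (0.0476), and on day 5 without that library (0.0412), with control day 3 replicates 1 and 2 summed (0.0467) and with only the libraries compared in the fit (0.0297). Lars2, for mitochondrial leucine tRNA, gave 1535, 998 and 1005 CPM in KO libraries of day 3 and 1185, 1133 and 1208 CPM in control libraries. KO replicate 2 lay above all control libraries and the other 2 KO libraries below them. On day 5 Lars2 gave 1205, 1044, 1568 and 1610 CPM in KO libraries, against 960.5, 1142, 1232 and 1171 CPM in control libraries. The spread of the KO libraries was wide on both days, and the change of 0.27 ± 0.157 SE on day 5 did not pass (adjusted p = 0.165 for Lars2).

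For 13 pairs of genes with matching symbols, such as Sars and Sars2, the cytosolic and the mitochondrial gene for the same amino acid were set side by side; Eprs and the 2 subunits for phenylalanine, whose mitochondrial counterparts do not match them one to one, were left out of the pairs. The cytosolic log2 change was below the mitochondrial one in 13 of 13 pairs on day 3 and in 13 of 13 on day 5, with a median distance of -1.08 on day 3 and -0.98 on day 5. The pair Sars and Sars2 stood at -1.52 and 0.60 on day 3 and at -1.19 and 0.54 on day 5. Cars and Cars2 stood at -1.63 and 0.49 on day 3 and at -1.40 and 0.37 on day 5. Both pairs thus moved in opposite directions on both days, and all 4 genes passed the test. Iars and Iars2 both fell, with log2 changes of -1.29 and -0.29 on day 3.

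**Figure D4:**
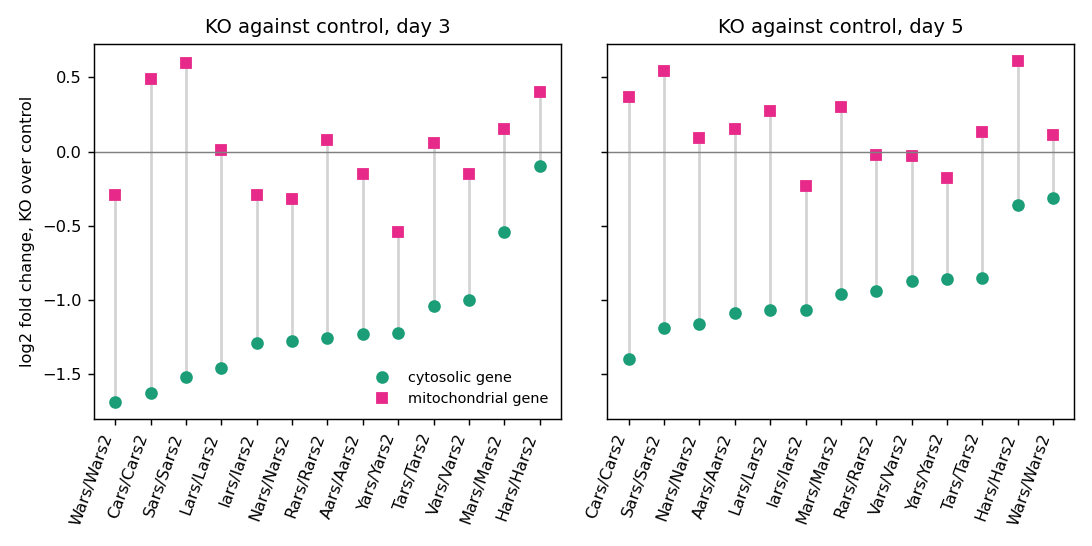
Log2 fold change, KO over control (y axis), of the cytosolic (green circles) and mitochondrial gene (pink squares) for the 13 pairs of genes with matching symbols, ordered by the cytosolic value, on day 3 (left) and day 5 (right). Every green circle lies below its pink square, with a median distance of -1.08 on day 3 and -0.98 on day 5.

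Other divisions of the cytosolic genes were compared by counts. Of the 8 in the multi-synthetase complex, 7 fell and 1 (Dars) rose on day 3, with a median of -0.79, and 7 fell on day 5, with a median of -0.94. Among the 12 outside the complex 11 fell on day 3 (median -1.22) and 12 on day 5 (median -0.86). The 12 commonly cited as ATF4 targets all fell on both days, with medians of -1.29 on day 3 and -1.07 on day 5. Of the other 8, 6 fell on day 3 (median -0.37) and 7 on day 5 (median -0.45). Most genes of each division thus fell on both days, where 26.2% of all genes tested fell on each day. The cited targets had the lower medians, but the lists were chosen with earlier results of these data known. This contrast is a description only, and the part of ATF4 in it was not tested.

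Per kilobase of counted transcript, levels differed widely within the family. Lars2 had the highest mean level over all 14 libraries, 312.8 CPM per kilobase, with single libraries from 248 to 415. Nars (167) and Gars (132) came next among all members, and Farsa was the lowest cytosolic gene (21.1). After Lars2 the highest mitochondrial gene was Iars2 with 31.9, which ranked 21 of 36 by this mean, and 16 in KO cells and 19 in control cells on day 3, and 15 in KO cells and 20 in control cells on day 5. In every group Lars2 ranked 1, and Pars2 was the lowest of all with 1.83, in a range of 1.30 to 2.34 CPM per kilobase. Nars ranged from 81.7 to 323 CPM per kilobase. Nars gave 386, 301.5 and 267 CPM in KO libraries of day 3 and 856, 742 and 730.3 CPM in control libraries. Its groups stood far apart on this scale too. Farsa gave 37.8, 30.5 and 29.1 CPM in KO libraries of day 3, against 43.1, 45.0 and 39.8 CPM in control libraries, so that its highest KO library lay just under its lowest control library.

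Genes that work beside the synthetases were counted from lists. All 3 scaffold proteins of the multi-synthetase complex fell on both days, where 26.2% of all genes tested fell on each day. Aimp1 fell by 0.71 on day 3 (adjusted p = 2.46e-06) and by 0.57 on day 5 (adjusted p = 3.27e-06), Aimp2 by 0.43 (adjusted p = 0.0196) and by 0.48 (adjusted p = 0.00353), and Eef1e1, whose product is AIMP3, by 1.25 (adjusted p = 1.93e-05) and by 0.80 (adjusted p = 0.000133). All 5 cytosolic elongation factors fell on both days, with medians of -0.55 on day 3 and -0.62 on day 5, among them Eef1b2 (-0.68 on day 3), the exchange factor of eEF1A. Of 4 mitochondrial elongation factors 1 rose and 1 fell on each day: Gfm2 rose on both, Tufm fell on day 3 and Tsfm on day 5. Of 4 genes that complete the charging of mitochondrial tRNA by amidation or formylation, 1 rose (Qrsl1, 0.44) and 1 fell (Gatc, -0.47) on day 3, and 2 rose on day 5 (Qrsl1, 0.49, and Mtfmt, 0.22). With so few genes, the 25% each way on day 3 for both mitochondrial lists is near the background of 24.6% higher and 26.2% lower. On day 5 the shares were 25% each way for mitochondrial elongation and 50% higher for charging, beside 26.3% higher and 26.2% lower.

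Of 11 genes for tRNA ends, splicing and export, 3 rose and 1 fell on day 3, and 4 rose and 3 fell on day 5. These shares, 27.3% higher and 9.09% lower on day 3 and 36.4% higher and 27.3% lower on day 5, stand beside 24.6% and 26.2% of all genes on day 3 and 26.3% and 26.2% on day 5. The 1 that fell on day 3 was Xpot, the tRNA exporter, with 188, 178 and 171 CPM in KO libraries and 346, 335 and 355 CPM in control libraries. All its KO libraries lay far below all control libraries, and it fell by 0.95 on day 3 (adjusted p = 2.1e-07) and by 0.71 on day 5 (adjusted p = 5.65e-07). Elac1, a tRNA 3′ end nuclease, rose by 0.83 on day 3 and 0.74 on day 5. Of 6 genes of another list, for tRNA editing and release, 1 rose and 2 fell on day 3, and 2 rose and 1 fell on day 5. Their shares were 16.7% higher and 33.3% lower on day 3, and 33.3% higher and 16.7% lower on day 5, beside the same shares of all genes. Dtd1 of this list, which removes D-amino acids from tRNA, rose by 0.73 on day 3 and 0.74 on day 5.

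Atf4 itself gave 385, 370.1 and 334 CPM in KO libraries of day 3, against 719, 655 and 607 CPM in control libraries. On day 5 it gave 202, 193, 210.4 and 216 CPM in KO libraries and 296, 349, 324 and 239 CPM in control libraries. KO was lower in every library, by -0.86 ± 0.119 SE on day 3 (adjusted p = 4.66e-05) and by -0.56 ± 0.103 SE on day 5 (adjusted p = 0.000455). ATF4 is regulated mainly by translation, which these RNA values do not measure. Of 7 genes for ATF4 and its partner factors 5 fell on both days, including Ddit3 (-1.98 on day 3, -0.58 on day 5) and Atf5 (-1.25 on day 3, -1.43 on day 5). All 11 genes of amino acid synthesis under ATF4 fell on both days, with medians of -1.59 on day 3 and -1.28 on day 5. Asns, which makes asparagine, gave 170.4, 125 and 119.5 CPM in KO libraries of day 3 and 376, 319 and 320.5 CPM in control libraries, a change of -1.28 (adjusted p = 4.21e-06). Aldh1l2, a mitochondrial folate enzyme, fell by 2.61 on day 3 (adjusted p = 6.37e-10) and by 2.68 on day 5 (adjusted p = 1.35e-10). The 9 amino acid transporters under ATF4 were less uniform: 8 fell on day 3, and on day 5, 5 fell and 1 rose. That one was Slc7a11, the cystine carrier, with 0.54 on day 3 (adjusted p = 0.0828) and 2.30 on day 5 (adjusted p = 5.02e-06). Of 7 other ATF4 targets 6 fell on day 3 and 7 on day 5. Beside these ATF4 lists, 26.2% of all genes tested fell on day 3 and 26.2% on day 5, and 24.6% and 26.3% rose. Of 5 genes, for the kinases of eIF2α, which act before ATF4, and for Gcn1, the activator of GCN2, 2 rose on day 3 and 1 fell on day 5. These shares, 40% higher on day 3 and 20% lower on day 5, stand beside 24.6% and 26.2% of all genes tested. The 1 that fell was Eif2ak4 (GCN2), the sensor of uncharged tRNA (-0.28, adjusted p = 0.00881).

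**Figure D5:**
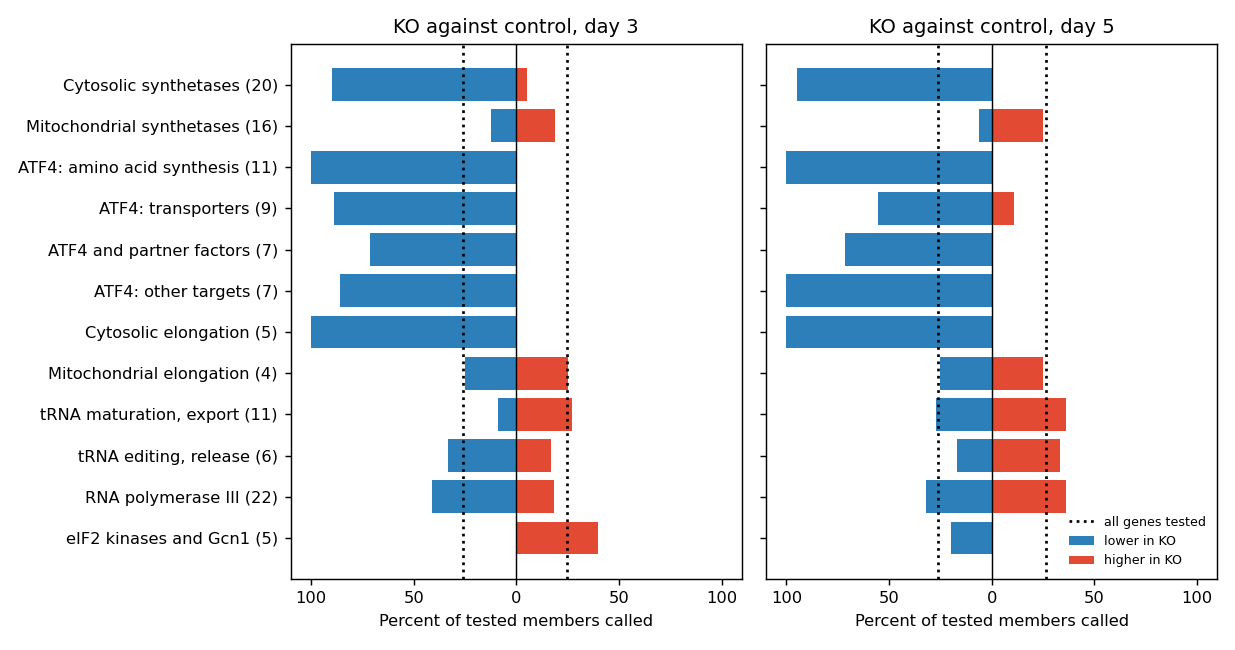
Percent of tested members that fell (blue, to the left of 0) or rose (red, to the right) in KO cells for 12 gene lists, with the number tested in brackets, on day 3 (left) and day 5 (right). Dotted lines give the shares among all genes tested (26.2% lower and 24.6% higher on day 3, 26.2% lower and 26.3% higher on day 5). The bars of the cytosolic synthetases, of amino acid synthesis genes under ATF4 and of cytosolic elongation factors reach 90% to 100% lower on both days, and the bars of mitochondrial synthetases lie at 18.8% higher and 12.5% lower on day 3.

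Several members share annotated bases with another gene. The shared bases below are of whole gene spans, introns included, and how many lie in counted exons was not determined. The strand setting of the counting is not given in the sources used here, so reads in a shared part cannot be assigned with certainty. Mars shares 71 bases with Ddit3, which fell more than Mars on day 3 (-1.98 against -0.54) and less on day 5 (-0.58 against -0.96). Aars shares 3974 bases with Ddx19b, which had a mean count of 351, and Farsb shares 2332 bases with Sgpp2, which had a mean count below 1. Iars2 shares 115 bases with Rab3gap2, Wars 24 bases with Wdr25 and Rars2 7 bases with Orc3. The span of Lars2 shares 8819 bases with Gm46137, and that of Fars2 20270 bases with Gm40912. These are long noncoding genes that were not counted themselves. Whether reads from them add to the high level of Lars2 or to that of Fars2 was not tested.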

How the data were processed

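Libraries were stranded poly(A) libraries read as 80-base pairs, per the labels' protocols. Reads were assigned to genes of mm10 with featureCounts, per the submitters' processing notes; the sources used here do not give the aligner, annotation release, strand setting or version. The values the authors deposited are counts per gene, whole numbers with no normalization, beside a gene identifier and a length. Of 27179 lines per library, 909 had no identifier (0.194% to 0.315% of the counts) and were left out. Identifiers were matched to symbols with RefSeq (GRCm38.p6), which gave 25275 of 26270 a symbol.

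From these counts a robust quasi-likelihood model was fitted with edgeR 4.0.16 (limma 3.58.1, R 4.3.3) to all 14 libraries with 1 mean per group, after filterByExpr and TMM scaling (trimmed mean of M values). Adjusted p-values are Benjamini-Hochberg values over 14327 genes, with 0.05 as the threshold; Xist, Tsix and Y-linked genes (112 in the files) were kept out because the sexes are unequal. CPM values use TMM-scaled totals of the genes tested, which ran from 2180922 to 39071033 counts before scaling. KO day 3 replicate 3 had the lowest total and is the least precise library. CPM is a share of a library and does not give RNA per cell. DESeq2 1.42.0, other scalings, filters, covariates, blocks and each library left out were tried. The model code was tested on simulated counts. KO and control libraries with the same replicate number come from different embryos, so the number was no block between genotypes. Correlations of their deviations from the group means were -0.051 and -0.021 on day 3 (replicates 2 and 3). On day 5 they were 0.23, 0.155, -0.166 and 0.428 (replicates 1, 2, 3 and 4). Within a genotype the embryo label pairs libraries of day 3 and day 5 (KO replicates 2, 3 and 4, and control embryos with both days). Correlations of these pairs were -0.017, -0.023 and 0.204 in KO cells and 0.02, 0.077 and -0.023 in control cells. Control day 3 replicates 1 and 2, of 1 embryo, differed by more than sampling noise and were kept as separate libraries.

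The members and all gene lists were chosen with earlier results of these data known. Values in every library are given for the 4 members of each class with the smallest adjusted p among non-overlapping ones on each day, for members against the direction of their class or with a called difference between days, and for the highest and lowest by level; Hars, the overlapping Farsb and the time changes of Hars and Mars were added after their values were seen. From each other list, members with the smallest adjusted p were named, some of them on 1 day only, beside Atf4, the scaffold genes and a few (Asns, Slc7a11, Eif2ak4) chosen after their values were seen. One gene of the list for tRNA editing and release is not reported here.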

Additional observations from a re-analysis of the deposited data

Results flagged for a closer look

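Among the 72 groups of 4 libraries (36 members in KO and control cells of day 5), 2 held a library far from the other 3 by Dixon's test, where chance gives about 1 in 20 groups. Farsb stood at 64.0 CPM in KO replicate 3 of day 5, with the other KO libraries at 60.9 to 61.4 CPM. Iars stood at 244 CPM in control replicate 4 of day 5, with the other control libraries at 289.5 to 299.5 CPM. That library is the male control and the only control of its litter label. For Wars the effect of deletion differed between the days, with a log2 change on day 5 minus that on day 3 of 1.38 ± 0.133 SE (adjusted p = 4.45e-05).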

How the results depend on the processing

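The counts of cytosolic and mitochondrial genes called between KO and control stayed within 1.5 times of those reported under all alternatives run, and no member changed direction among called values. With each library left out in turn, 17 to 19 cytosolic and 5 to 6 mitochondrial genes passed on day 3, and 19 and 5 to 6 on day 5. Litter as a covariate, which takes different embryos as alike by number, gave 14 cytosolic genes on day 3 and 17 on day 5. For the difference between days (1 cytosolic and 0 mitochondrial genes), the cytosolic count was 3 with library totals only, 3 with DESeq2, 5 with sex and 2 with litter as a covariate, 2 with the replicate number as a block and 1 to 4 with a library left out, and the mitochondrial count was 2 with library totals only and 0 to 1 with a library left out. For day 5 against day 3 in KO cells (8 and 3 genes), library totals only gave 4 cytosolic and 5 mitochondrial genes, and leaving out a library 5 to 10 and 0 to 3, with 0 mitochondrial genes without KO day 3 replicate 4. Library totals only moved the median of all genes by up to 0.13 there. In control cells (15 and 5 genes), the replicate block by embryo gave 13 cytosolic and 3 mitochondrial genes, and leaving out a library 13 to 16 and 4 to 6. The replicate number pairs different embryos across genotypes, and with it as a block the counts of KO against control were 19, 5, 19 and 5, as without it. The causes of these changes were not tested. Pars2, with as few as 14 counts, and the shallow KO day 3 replicate 3 limit what low mitochondrial genes can show.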

Other observations

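RNA polymerase III, which transcribes tRNA genes, was measured through 22 genes for its subunits and factors. On day 3, 4 of them rose and 9 fell in KO cells, and on day 5, 8 rose and 7 fell, with medians of -0.20 and -0.02 on the log2 scale. The shares were 18.2% higher and 40.9% lower on day 3 and 36.4% higher and 31.8% lower on day 5, beside 24.6% and 26.2% of all genes tested on day 3 and 26.3% and 26.2% on day 5. Polr3e, a subunit of the enzyme, fell by 0.92 on day 3 (adjusted p = 3.75e-06) and by 0.61 on day 5 (adjusted p = 2.37e-05). Polr3b, the subunit next in size to the largest, rose by 0.43 on day 3 (adjusted p = 0.000275) and by 0.61 on day 5 (adjusted p = 3.27e-06). Gtf3c1, of the factor TFIIIC that binds tRNA genes, fell by 0.59 on day 5 (adjusted p = 2.36e-06). The adjusted p-values are those of edgeR's quasi-likelihood test over all genes tested. The RNA itself of tRNA genes is not analysed here.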
